A study of Mus musculus with 13 samples.

Results

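HA regions present before Myf6 induction were 705 stretches of the mouse genome that gave an HA peak in both libraries of cells kept without doxycycline and no peak in any of 6 IgG libraries. They were found by merging the peaks of 6 HA and 6 IgG libraries on chromosomes 1 to 19 wherever these shared at least 1 bp, and they made up 1.00% of the 70492 merged regions. The members were thus chosen by the presence of a deposited peak in the 2 uninduced HA lists and its absence in the 6 IgG lists. Their values in those 8 lists are given as a description. The 4 HA lists of induced cells and the list for H3K27me3 had no part in the choice.

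The cells were mouse embryonic fibroblasts from mice that carried CAG-rtTA3, Pax7-CreERT2 and Rosa26-LSL-tdTomato. In them Myf6 with an HA tag could be switched on by doxycycline, and all of them spent 24 h in iMPC medium. The +Myf6+F/R/C cells received 2 µg/mL doxycycline with 5 µM Forskolin, 5 µM RepSox and 3 µM CHIR99021, the +Myf6 cells received 2 µg/mL doxycycline alone, and the uninduced cells received neither. Forskolin is an activator of adenylyl cyclase, RepSox blocks the TGF-β type I receptor, and CHIR99021 is a GSK3 inhibitor. There were 2 HA libraries and 2 IgG libraries per treatment, with a single H3K27me3 library of +Myf6+F/R/C cells. Per the labels' protocols, nuclei of 1 preparation were split between the HA and the IgG reaction, and the control antibody was an anti-rabbit IgG. The library names of uninduced replicate 1 begin with H7, those of replicate 1 of both induced treatments with H5 and those of every replicate 2 with H8. The H3K27me3 library is titled replicate 1 but its name begins with H8. What these prefixes stand for is not given in the sources used here. Nothing in the labels tells whether the replicates were separate cultures, so their spread may be technical.

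Myf6, also called MRF4, is a myogenic basic helix-loop-helix factor. Factors of this family bind E-box sequences as dimers with E proteins and switch on muscle genes, and they can do so in fibroblasts. The activator rtTA binds its target promoter when doxycycline is present, so HA libraries without doxycycline serve as the reference for HA libraries with it. In CUT&RUN, a nuclease tethered to the antibody cuts the DNA around the antibody's target, and accessible chromatin can also be cut without a target. IgG libraries record such cuts. H3K27me3 is the histone mark left by Polycomb repressive complex 2 on silenced chromatin. Positions are on GRCm39, and no annotation or sequence of this build was used here, so regions are named by position without a gene or a motif.

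Both depth and the number of peaks differed between libraries. On chromosomes 1 to 19 the HA lists held 37811 and 31504 peaks in +Myf6+F/R/C cells, 28012 and 34566 in +Myf6 cells, and 2130 and 4138 in uninduced cells (replicates 1 and 2). The IgG lists held 410 to 1648 peaks. The mean number of fragments per 10 kb, recovered from the deposited values, was, for HA, 61.9 and 40.9 in +Myf6+F/R/C cells, 42.4 and 30.6 in +Myf6 cells and 30.6 and 23.7 in uninduced cells. It ran from 8.25 to 22.7 in the IgG libraries. In +Myf6 and in uninduced cells the shallower HA library had the longer list, and in +Myf6+F/R/C cells the deeper one. Uninduced replicate 2 also had shorter fragments, 108 bp against 152 bp in uninduced replicate 1 and 161 to 172 bp in the induced HA libraries.

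Of 1047 regions shared by both uninduced HA lists, 342 also had an IgG peak and 705 did not. These 1047 regions were 49.9% of the regions of uninduced replicate 1 and 25.7% of those of replicate 2. Among the 342 regions with an IgG peak, called IgG-positive regions here, 224 had a peak in all 6 IgG lists and 29 in 1. A further 3775 regions had a peak in 1 uninduced HA list and in no IgG list, and are called single-list regions. The summit of a member was covered by a median of 12 fragments in uninduced replicate 1 and 9 in replicate 2. Divided by the mean coverage of its library, which is called summit enrichment here, this was a median of 25.8 and 35.2. The members' uninduced peaks stood at the 56.4th and 63.7th percentile of their lists by p-value, so they lay near the middle of the uninduced lists, in which 4.54% and 9.50% of them were in the top decile.

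The IgG libraries were shallower than the HA libraries, which limits what their lack of a peak says. The lowest peaks called in the IgG lists had 3 to 5 fragments at the summit. At their mean uninduced HA enrichment scaled by depth, 85.5% and 84.0% of the members would have reached the lowest −log10 p of the uninduced IgG lists. In the IgG lists of induced cells the share was 39.7 to 96.2%. At least 1 of the 6 IgG lists would have been reached by 96.6% of the members, and all 6 by 38.4%. The choice of the members can raise that enrichment. At the edge of the rule, the member with the weakest smaller q-value, chr18:7205101-7205719, had −log10 q of 4.21 and 1.30 in the uninduced lists (replicates 1 and 2). The other 4 of the 5 weakest members had a smaller −log10 q of 1.33 to 1.38. Just outside, the strongest single-list region, chr14:113399821-113399987, had a −log10 q of 25.6 in uninduced replicate 2 and no peak in the other 11 HA and IgG lists. The next 4 single-list regions had a −log10 q of 18.8 to 23.4, all in uninduced replicate 2. The strongest region left out for a single IgG list, chr18:14463988-14465475, had −log10 q of 25.8 and 22.0 in the uninduced HA lists and 2.05 in an IgG list of uninduced cells. In the next 4 of this kind the smaller uninduced −log10 q was 8.59 to 9.70.

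The strongest members before induction were strong after it as well. The best mean rank in the uninduced lists was that of chr13:91519081-91519727. Its summit was covered by 54 and 51 fragments in +Myf6+F/R/C cells, 37 and 28 in +Myf6 cells and 43 and 30 in uninduced cells (replicates 1 and 2). As summit enrichment, this was 53.2 and 72.5 in +Myf6+F/R/C cells, 54.2 and 56.9 in +Myf6 cells and 92.3 and 117 in uninduced cells. Every induced library was below both uninduced ones at this member. At chr10:107498232-107499129 the enrichment was 82.7 and 72.5 in +Myf6+F/R/C cells, 74.7 and 77.2 in +Myf6 cells and 58.0 and 74.3 in uninduced cells, so the induced and uninduced values overlapped. At chr3:144348730-144349977, the longest of the 10 strongest members, it was 90.6 and 128 in +Myf6+F/R/C cells, 84.9 and 87.4 in +Myf6 cells and 103.1 and 113 in uninduced cells, again overlapping. Among the other 7 of these 10, every induced library was also below both uninduced ones at chr18:77142019-77142973, chr17:48312193-48313251, chr7:101713942-101714902 and chr11:102893941-102894706. The values overlapped at chr8:41051516-41052406, chr8:70169219-70170066 and chr15:95654881-95655830. These 10 were picked by their uninduced rank, and this choice can raise their uninduced values. All 10 had a peak in each of the 4 induced lists, with between 15 and 92 fragments at the summit.

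Most of the members also had a peak after induction. A peak was present in 98.2% and 94.9% of them in the +Myf6+F/R/C lists and in 94.5% and 91.3% in the +Myf6 lists (replicates 1 and 2). All 4 induced lists had one at 619 members (87.8%, exact 95% Clopper-Pearson interval 85.2 to 90.1%), against 14.9% of all merged regions. Both +Myf6+F/R/C lists had one at 668 members (94.8%, against 26.1% of all merged regions) and both +Myf6 lists at 630 (89.4%, against 22.2%). Fewer of the IgG-positive regions, 76.6% (71.8 to 81.0%), and of the single-list regions, 43.5% (41.9 to 45.1%), were in all 4 lists. The order of members and IgG-positive regions turned round when the induced lists were shortened to their strongest peaks. These intervals cover counting error over regions only, since regions of a library are not replicates of a treatment. By the strength of the uninduced peaks, the share was 82.6% (77.1 to 87.2%) in the 235 weakest members, 89.8% (85.2 to 93.3%) in the 235 in between and 91.1% (86.7 to 94.4%) in the 235 strongest, with intervals that overlap between neighbours. When sharing was asked of summits within 200 bp in place of intervals, a setting chosen after seeing the data, 592 members were left and 67.7% of them were in all 4 lists.

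**Figure D1:**
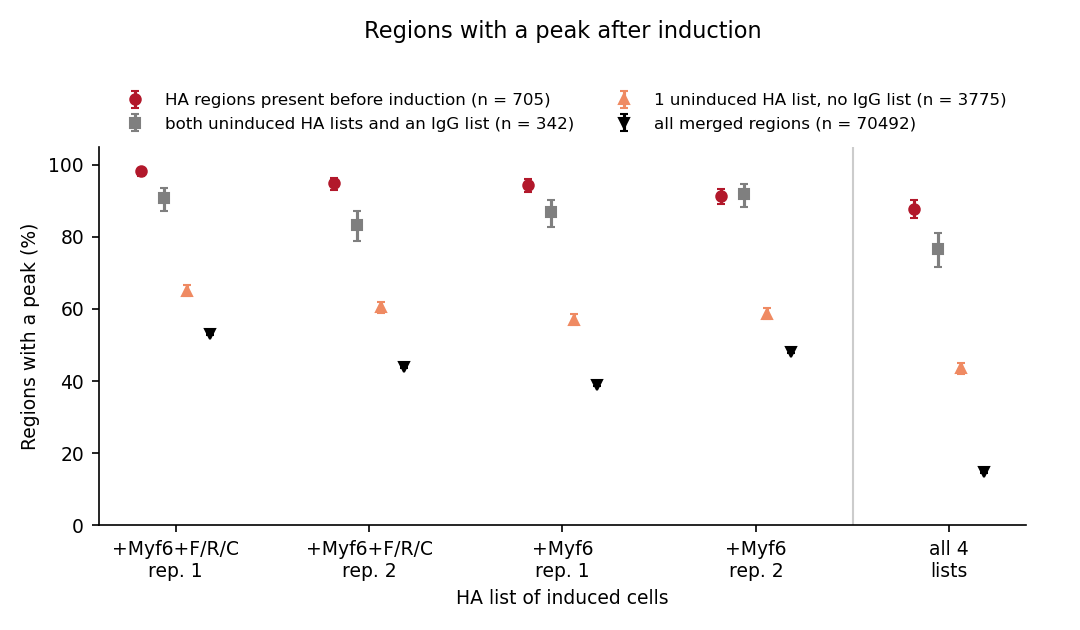
Share of regions (y axis, percent) with a peak in each HA list of induced cells and in all 4 of them (x axis), for the members, the IgG-positive regions, the single-list regions and all merged regions. Points are shares and bars exact 95% Clopper-Pearson intervals; the members sit between 91.3% and 98.2% in the 4 lists, against 39.0 to 53.0% for all merged regions.

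The 86 members outside this count were mostly missing from few lists. A peak was found in 3 induced lists at 50 of them, in 2 at 17, in 1 at 11 and in none at 8. Over all 70492 merged regions the counts were 8527 in 3 lists, 13267 in 2, 35677 in 1 and 2534 in none. The commonest incomplete pattern, at 30 members, was a peak in every induced list but that of +Myf6 replicate 2, the shallowest of the 4. Over all merged regions this pattern was seen at 2564. A peak in both lists of +Myf6+F/R/C cells with none in +Myf6 cells was seen at 9 members, and the opposite at 1. Over all 70492 merged regions these patterns were seen at 2915 and 1669, and over the 342 IgG-positive regions at 2 and 7. Whether the members differ from these sets in this was not tested. Among the 9 members, chr2:72877574-72877884 had 30 and 19 fragments at its summit in +Myf6+F/R/C cells and 16 and 10 in uninduced cells. The 1 member of the other kind, chr7:140620009-140620359, had 6 and 9 fragments in +Myf6 cells and 7 and 22 in uninduced cells. The mean share of members with a peak was 96.5 ± 2.31% in +Myf6+F/R/C cells and 92.9 ± 2.21% in +Myf6 cells (SD, n = 2 each), a difference of 3.62 percentage points (exact permutation p = 0.33, two-sided, the smallest that 2 libraries against 2 allow). The lower +Myf6+F/R/C value was above the higher +Myf6 value by less than the spread between replicates. The deepest of these 4 libraries had the highest share and the shallowest the lowest. In between, +Myf6 replicate 1 was deeper than +Myf6+F/R/C replicate 2 (42.4 against 40.9 fragments per 10 kb) but had the lower share (94.5% against 94.9%). The part of depth in the difference was not tested.

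After induction the members were among the strongest peaks of the lists, as were the IgG-positive regions. At the members with a peak in the list, the median percentile was 95.6 and 93.2 in the +Myf6+F/R/C lists and 92.0 and 90.4 in the +Myf6 lists (100 being the strongest), where all peaks have a median near 50. The top decile of the list held 75.1% and 60.4% of them in +Myf6+F/R/C cells and 57.4% and 51.2% in +Myf6 cells. The IgG-positive regions had a median percentile of 94.9 and 95.7 in +Myf6+F/R/C cells and 95.5 and 98.6 in +Myf6 cells, with 60.0% and 64.2% of them in the top decile in +Myf6+F/R/C cells and 64.3% and 80.3% in +Myf6 cells. Since the induced lists are long, each was also shortened to its 2130 strongest peaks, the number in the shorter uninduced list. The members then had a peak in 58.9% and 48.8% of cases in +Myf6+F/R/C cells and 47.4% and 36.2% in +Myf6 cells, and 144 of 683 (21.1%) had one in all 4 shortened lists, against 123 of 338 IgG-positive regions (36.4%) and 5.15% of all regions merged in this way. With shortened lists the IgG-positive regions were thus in all 4 lists more often than the members (31.3 to 41.8% against 18.1 to 24.3%, exact 95% Clopper-Pearson intervals). Under this setting 172 members had no induced peak.

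The members were set beside 7608 regions seen in each of the 4 induced HA lists but in no uninduced HA or IgG list, called induced-only regions. Scaled by depth from their mean induced enrichment, which the choice of these regions can raise, 94.95% of them would have reached the lowest called −log10 p in uninduced replicate 1 and 40.2% in replicate 2. The median summit enrichment of the 619 members in all 4 lists was 35.4 and 36.9 in +Myf6+F/R/C cells and 32.2 and 34.5 in +Myf6 cells. That of the induced-only regions was 17.7 and 19.9 in +Myf6+F/R/C cells and 19.03 and 22.4 in +Myf6 cells. The members were thus 1.55 to 2.00 times as high, in 4 of 4 libraries (mean log2 ratio 0.82 ± 0.16, SD, n = 4, exact sign-flip permutation p = 0.125, two-sided, the smallest that 4 libraries allow). The sets were split by whether the uninduced lists held a peak, and a taller site is called more readily. This choice can by itself make the members higher. The sign-flip test does not take it into account, so it cannot tell a difference between the sets from the choice. Members' peaks were also longer, with medians of 690 and 636 bp in +Myf6+F/R/C cells and 547 and 501 bp in +Myf6 cells, against 381 to 471 bp in the induced-only regions. The fragments in the 10-kb window around the summit, divided by the library's mean and called the window ratio here, were a median of 3.84 and 4.01 in +Myf6+F/R/C cells and 3.37 and 3.27 in +Myf6 cells at the members, and 2.05 to 2.27 at the induced-only regions. The window holds the peak itself, so a taller and longer peak raises it. Width and window ratio were higher at the members in 4 of 4 libraries too (exact sign-flip permutation p = 0.125 for each, and 0.125 after Benjamini-Hochberg adjustment over the 4 measures compared). The choice of the sets can raise these measures as well, and their tests cannot tell this apart either.

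**Figure D2:**
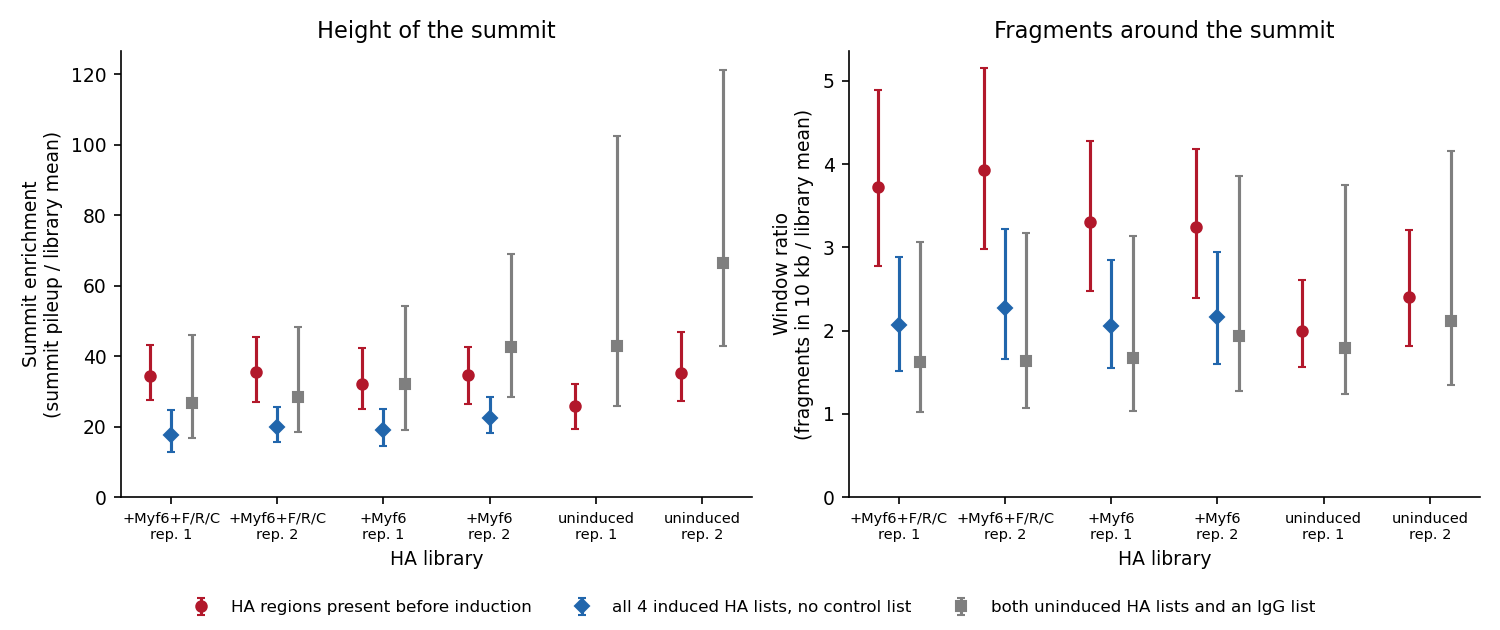
Summit enrichment (left, summit coverage over the library mean) and window ratio (right, fragments in 10 kb over the library mean) in the 6 HA libraries on the x axis, for the members, the induced-only regions and the IgG-positive regions with a peak in the library. Points are medians over regions and bars the middle 50% of regions; in the uninduced libraries the members' median enrichment is 25.8 and 35.2 and that of the IgG-positive regions 42.9 and 66.5.

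Between the induced treatments, the members had a log2 ratio closer to 0 at the summit than around it. The mean of the median summit enrichments was 36.2 ± 1.06 in +Myf6+F/R/C cells and 33.4 ± 1.66 in +Myf6 cells (SD, n = 2 each), a log2 ratio of 0.12 (exact permutation p = 0.33, two-sided). The window ratio was 3.92 ± 0.117 in +Myf6+F/R/C cells and 3.32 ± 0.0694 in +Myf6 cells, a log2 ratio of 0.24 (exact permutation p = 0.33, n = 2 each). The peaks were 663 ± 38.2 bp long in +Myf6+F/R/C cells and 524 ± 32.5 bp in +Myf6 cells (exact permutation p = 0.33, n = 2 each). The deposited fold at the summit was 6.99 ± 0.599 in +Myf6+F/R/C cells and 6.84 ± 0.299 in +Myf6 cells, with overlapping libraries (exact permutation p = 1, n = 2 each). For window ratio and width, the lower value of +Myf6+F/R/C cells exceeded the higher one of +Myf6 cells by more than the spread between replicates, but 2 libraries against 2 cannot pass 0.05. Over the 5 measures compared, the adjusted p was 0.417 for 4 of them and 1 for the fold. At the induced-only regions, whose median enrichments are given above, the +Myf6+F/R/C library had the lower value within each replicate number, and the median window ratio was 2.07 and 2.27 in +Myf6+F/R/C cells and 2.05 and 2.16 in +Myf6 cells. Whether the members differ from them in this was not tested. Within each replicate number the +Myf6+F/R/C library was the deeper one, and the part of depth in these differences was not tested.

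By median, the members' induced summits were similar in enrichment to those of uninduced replicate 2 and more enriched than those of uninduced replicate 1. The windows around them held more fragments than in either uninduced library. This comparison has no test, because the uninduced values chose the members and selection can raise them. It covers only the 619 of 705 members with a peak in all 4 induced lists, and this choice can raise the induced values. The median summit enrichment of the 619 members was 35.4 and 36.9 in +Myf6+F/R/C cells, 32.2 and 34.5 in +Myf6 cells and 25.8 and 35.2 in uninduced cells, so the induced values overlapped those of uninduced replicate 2. The log2 ratio of each member's mean over the 4 induced libraries to its mean over the uninduced libraries had a median of 0.15, with the middle 50% of members between -0.15 and 0.40. It was above 0 at 401 of 619 members (64.8%). All 4 induced libraries were above both uninduced ones at 107 members and below both at 39. Of the 262 IgG-positive regions with a peak in all 4 induced lists, they were above at 3 and below at 147. The window ratio showed a wider gap, with medians of 3.84 and 4.01 in +Myf6+F/R/C cells, 3.37 and 3.27 in +Myf6 cells and 2.06 and 2.45 in uninduced cells. Its log2 ratio had a median of 0.80 for +Myf6+F/R/C over uninduced cells and of 0.54 for +Myf6 over uninduced cells. In window ratio, all 4 induced libraries were above both uninduced ones at 409 members and below both at 4. At the same 262 IgG-positive regions they were above at 24 and below at 120.

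**Figure D3:**
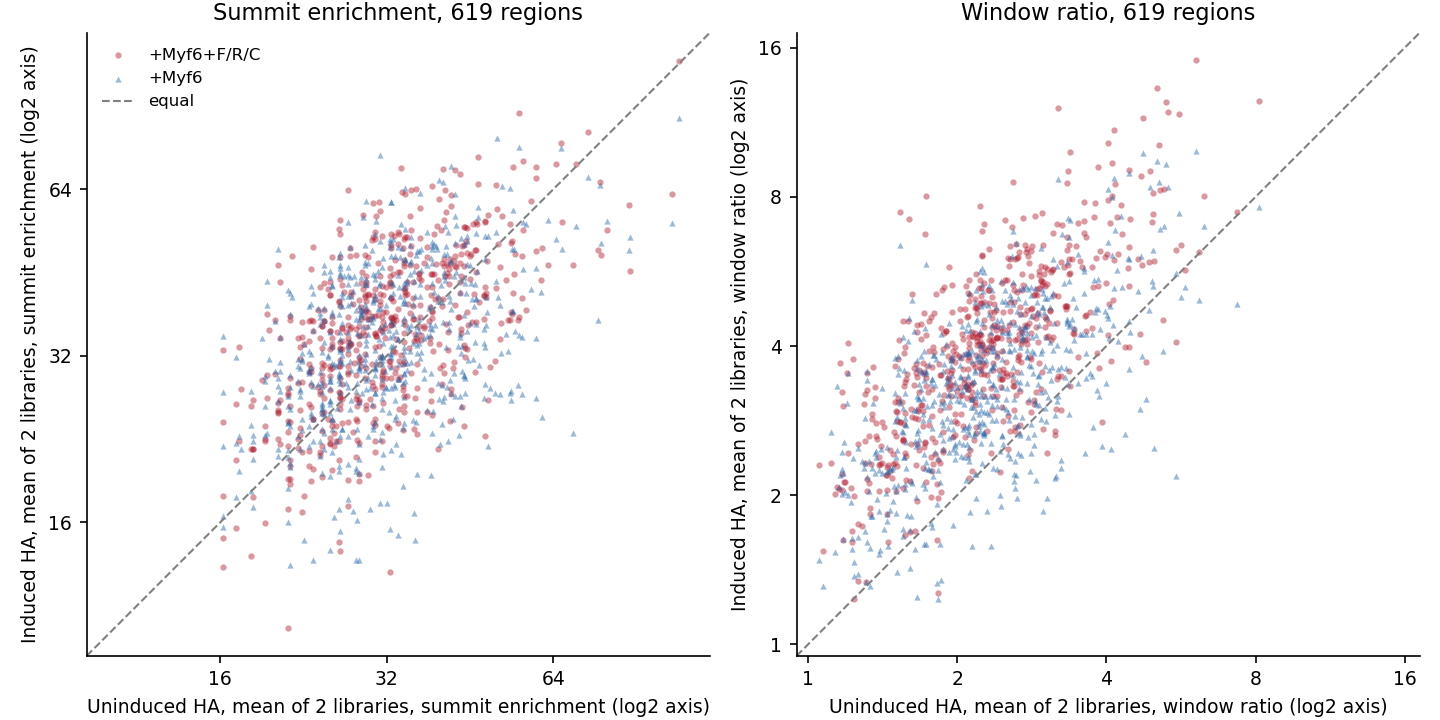
Each of the 619 members with a peak in all 4 induced lists, as the mean of the 2 uninduced HA libraries (x axis) and the mean of the 2 HA libraries of an induced treatment (y axis), for summit enrichment (left) and window ratio (right), on log2 axes. The dashed line marks equal values. Of these 619 members, 64.8% lie above 0 in log2 summit enrichment over the 4 induced libraries and 93.5% in log2 window ratio.

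The IgG-positive regions had a lower summit enrichment in induced than in uninduced libraries. In the 262 of them with a peak in all 4 induced lists, the median log2 ratio of summit enrichment over the uninduced libraries was -1.13 for +Myf6+F/R/C cells and -0.71 for +Myf6 cells, and it was above 0 over the 4 induced libraries at 15 regions (5.73%). The corresponding medians at the members were 0.18 for +Myf6+F/R/C cells and 0.10 for +Myf6 cells. The rule chose the members on the same uninduced lists, so this difference between the sets was not tested. The IgG-positive regions were also chosen by their uninduced peaks, which can raise their uninduced values.

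Single members ranged widely around the middle. The member with the highest ratio, chr4:81953320-81954036, had a summit enrichment of 49.2 and 44.0 in +Myf6+F/R/C cells, 51.2 and 48.8 in +Myf6 cells and 17.2 and 23.5 in uninduced cells, a log2 ratio of 1.25 with no overlap between induced and uninduced libraries. Next was chr13:30375830-30376725, with 64.0 and 63.9 in +Myf6+F/R/C cells, 52.7 and 58.9 in +Myf6 cells and 19.3 and 35.2 in uninduced cells (log2 ratio 1.14). The lowest ratio, a log2 value of -1.18, was at chr17:70704158-70704668, with 11.8 and 14.2 in +Myf6+F/R/C cells, 8.78 and 22.4 in +Myf6 cells and 25.8 and 39.1 in uninduced cells. Here too the groups did not overlap. At chr12:26527871-26528786 the enrichment was 39.4 and 54.0 in +Myf6+F/R/C cells, 22.0 and 24.4 in +Myf6 cells and 45.1 and 93.9 in uninduced cells (log2 ratio -0.99), with 1 of the +Myf6+F/R/C libraries between the uninduced ones.

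The 8 members with no peak in any induced list were short. None of them had an H3K27me3 peak, against 45.4% of all members and 26.2% of all merged regions with one. A shorter region meets a peak less often, and the part of length in this was not tested. The 8 made up 1.13% of the members. No induced peak was found at 25.2% of the single-list regions and 3.22% of the IgG-positive regions. Over all merged regions the share was 3.59%, but most of those entered the merge through an induced peak. The 8 members were 152 to 309 bp long, with a median of 206 bp. In the 619 members present in all 4 lists the median was 810 bp, and merged length grows with the number of lists. Summits of the 8 members were covered by a median of 8.5 fragments in uninduced replicate 1 and 11.5 in replicate 2. At their uninduced enrichment scaled by depth, all 8 would have reached the lowest called −log10 p in each of the 4 induced lists. The choice of the members can raise that enrichment. Apart from the one on chromosome 10 described next, they were chr14:60278085-60278280, chr4:20191817-20191970, chr13:46966158-46966374, chr16:3168638-3168910, chr14:99510017-99510325, chr2:105083289-105083440 and chr14:14182852-14183088. Of these, chr14:60278085-60278280 had 8 and 16 fragments at its summit in uninduced cells, and chr16:3168638-3168910 had 9 and 17. With −log10 q of at least 5 asked in both uninduced lists, 232 members were left, of which 2 had no induced peak and 92.2% were in all 4 lists.

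A group of 3 members within a short stretch of chromosome 10 differed from the others in their surroundings. They were chr10:3064495-3064664, chr10:3064870-3065062 and chr10:3066090-3066686, the closest pair being 205 bp apart. Their uninduced summits had 62, 64 and 56 fragments in replicate 1 and 29, 33 and 20 in replicate 2, but their window ratios were 41.2 to 45.8 in replicate 1 and 25.7 to 28.6 in replicate 2. No other member had a window ratio of 10 or more in both uninduced lists. The deposited fold of chr10:3064870-3065062 was accordingly low, 2.97 and 4.18. An induced peak was found at the first in +Myf6+F/R/C replicate 1, at the second in no list, and at the third in +Myf6+F/R/C replicate 1 and both +Myf6 lists. Without these 3, which were picked after their values were seen, 619 of 702 members (88.2%) were in all 4 induced lists and 7 in none.

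Summits of the members lay close together between libraries. Between the 2 +Myf6+F/R/C libraries the median distance was 36 bp at the 619 members, between the 2 +Myf6 libraries 60 bp and between the 2 uninduced libraries 70 bp. Between an induced and an uninduced library it was 45 to 83 bp, and 56.5 to 68.0% of the summits were within 100 bp of each other. The ranking of the members by summit enrichment was shared most between libraries of induced cells. Spearman's rho across the 619 members was 0.56 to 0.73 between induced libraries, 0.47 between the 2 uninduced libraries and 0.30 to 0.54 between an induced and an uninduced library. These are descriptions over regions, which share the base composition and accessibility of their sites in every library. Uninduced summits rest on few fragments, as given above.

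H3K27me3 peaks were found at 320 of the 705 members (45.4%, 41.7 to 49.1%), against 26.2% of all merged regions, in 1 library with no replicate. The members were longer than other regions, with a median of 781 bp against 325 bp for all merged regions, and a longer region meets a peak more often. Counted at the HA summit alone, where length plays no part, an H3K27me3 peak covered 30.9% and 30.6% of the members' summits in the +Myf6+F/R/C lists and 30.6% and 32.1% in the +Myf6 lists. The same shares ran from 24.6 to 25% in the induced-only regions and from 22.1 to 26.1% in all merged regions. In the single-list regions they were 30.1 to 31.3%. The IgG-positive regions had an H3K27me3 peak over 73.2 to 78.9% of their induced HA summits. The H3K27me3 list was not filtered for IgG peaks, and how many of its peaks are cuts without a target was not tested. At the uninduced summits (replicates 1 and 2) the share was 28.9% and 28.8% for the members. It was 31.7% and 29.1% for all regions of those lists, which include the IgG-positive regions (67.8% in both). For the single-list regions it was 21.1% and 24.1%.

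The H3K27me3 peaks over the members lay in the weaker part of the H3K27me3 list, as did those over the single-list regions. Their median percentile within the H3K27me3 list was 35.2 and 38.7 at the +Myf6+F/R/C summits and 37.5 and 38.7 at the +Myf6 summits, and 1.40 to 1.47% were in the top decile. At the induced-only regions the median percentile was 52.6 to 53.5 with 11.4 to 12.1% in the top decile, and at the single-list regions it was 40.01 to 42.3 with 5.40 to 5.95%. The peaks over the members were a median of 436 to 454 bp long, against 497 to 520 bp over the single-list regions and 654 to 670 bp over the induced-only regions, and their summit was a median of 67.5 to 82 bp from the HA summit, against 119 to 128 bp at the induced-only regions. A member without an H3K27me3 peak was a median of 21382 bp from the nearest one. Members with an H3K27me3 peak were in all 4 induced lists more often, 296 of 320 (92.5%, 89.0 to 95.1%) against 323 of 385 (83.9%, 79.8 to 87.4%). They were also longer, with a median of 830 bp against 739 bp, and the part of length in this was not tested.

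**Figure D4:**
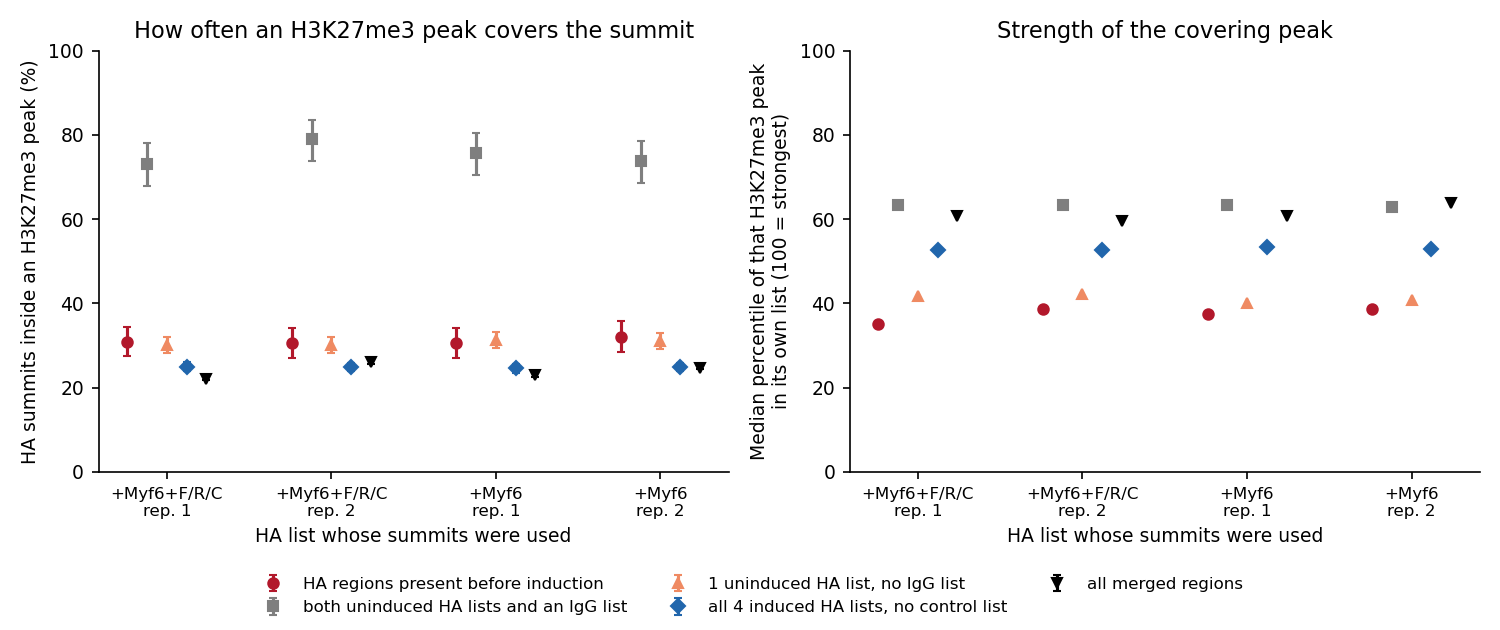
Share of HA summits inside an H3K27me3 peak (left, percent, with exact 95% Clopper-Pearson intervals) and the median percentile of that peak in the H3K27me3 list (right, 100 being the strongest), by the HA list whose summits were used (x axis). The members lie at 30.6 to 32.1% on the left and at 35.2 to 38.7 on the right, where the induced-only regions lie at 52.6 to 53.5.

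The members were spread over the genome. Each of the 19 chromosomes held between 25 and 47 of them. Of every 1000 regions found in all 4 induced lists, 45.6 to 75.6 were members, depending on the chromosome. The nearest other member was a median of 803849 bp away, and 19 members (2.70%) had another within 10 kb. The nearest induced-only region was a median of 46929 bp away and lay within 10 kb of 108 members (15.3%), where 10.7% of the induced-only regions had another within 10 kb. An IgG peak lay within 10 kb of 19 members (2.70%). Among the close pairs, chr4:123482367-123483079 and chr4:123487360-123488131 were 4280 bp apart and both were in all 4 induced lists with an H3K27me3 peak. Their summit enrichment in +Myf6+F/R/C cells was 55.1 and 56.8 at the first and 55.1 and 54.0 at the second.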

How the data were processed

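CUT&RUN was read out in 13 libraries (6 HA, 6 IgG, 1 H3K27me3). The deposited files were narrow-peak lists, 1 per library, so replicates were not pooled. The submitters' processing notes name GRCm39 and the tools MACS2, deepTools and DiffBind, without versions. No aligner is given in the sources used here. As deposited by the authors, each peak has a fold (a ratio to the local background at the summit), a p-value and a q-value as −log10, and a score that equals 10 times the −log10 q cut to a whole number. These values belong to their own list.

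Summit pileup k and expected pileup λ were recovered from fold = (k + 1)/(λ + 1) and the Poisson tail, to within 0.002 in −log10 p for at least 99.9% of the peaks of each list. The lowest λ is the library's mean coverage. A whole number of fragments in a 10-kb window, to within 0.05, underlay every λ between that mean and 2. The recovery and the merging were tested on simulated data. In a region, a list's strongest peak was used. Python 3.11.15, numpy 2.4.6, pandas 2.3.3, scipy 1.17.1 and matplotlib 3.10.9 were used.

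Treatments were compared over libraries with two-sided exact permutation tests, and members with induced-only regions by exact sign flips over the 4 libraries. Regions named are the 10 with the best mean uninduced rank, the members without an induced peak and the regions next to the rule's limits; those with extreme ratios, those in 1 treatment only and the close neighbours were added after their values were seen. The members and lists were chosen with earlier results of these data known. Spike-in reads were not used here. Planned counts of motifs, transcription starts and genes were not run, as no annotation or sequence of GRCm39 was used here.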

Additional observations from a re-analysis of the deposited data

Results flagged for a closer look

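On chromosome X, which lies outside the merged chromosomes 1 to 19, 5 further regions met the same rule, with uninduced HA peaks in both replicates and no IgG peak. Of these, 3 were found in each of the 4 induced HA lists and the other 2 in 3 of them. None was found on chromosome Y.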

How the results depend on the processing

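Asking −log10 q of at least 5 in both uninduced HA lists left 232 members, 92.2% of them in all 4 induced lists and 2 in none. With the induced lists shortened to the 2130 strongest peaks, 21.1% of the members were in all 4 and 172 in none, and 36.4% of the IgG-positive regions were in all 4, which reverses the order of the 2 sets. Leaving out each of the 12 libraries in turn gave 701 to 3486 members, 49.0 to 92.2% in all 4 induced lists, 8 to 816 in none, and 35.8 to 45.5% with an H3K27me3 peak. The widest values came without uninduced HA replicate 1 (3486 members, 816 in none) and without uninduced HA replicate 2 (1699 members, 150 in none), where 1 list alone chose the members. Without +Myf6+F/R/C HA replicate 1, 15 members had no induced peak. Without 1 library, the difference in share between the treatments ran from 2.00 to 5.26 percentage points and the log2 ratio of enrichment from 0.01 to 0.14. With the replicate block, the paired difference was 3.62 percentage points and the paired log2 ratio 0.12 (exact sign-flip permutation p = 0.5 for both, the smallest that 2 pairs allow). The labels do not state that a number pairs samples, and the replicate differences of the 2 induced treatments correlated at r = 0.32 over the 619 members. Of 4 alternatives chosen after seeing the data, summits within 200 bp gave 67.7% in all 4 lists. In another, an H3K27me3 peak over the summit of uninduced HA replicate 1 was found at 28.9% of the members, against 31.7% of all regions in that list. The other 2 (no IgG peak within 1 kb, and no members in dense windows) gave 88.0% and 88.2% in all 4 lists. The treatment differences at the members kept their sign under the alternatives run. The alternatives for motifs and transcription starts were not run. The shallow IgG libraries limit what a missing IgG peak says.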
